A study of Rattus norvegicus with 13 samples.

Results

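Energy metabolism in rat mammary epithelial cells was followed gene by gene along glycolysis, the pentose phosphate pathway, pyruvate entry into mitochondria and the tricarboxylic acid (TCA) cycle, in animals of 2 ages. The study takes the younger age as within the window of susceptibility (WOS) for mammary cancer and the older age as outside it. Its methods describe the rats used for RNA as entering the WOS and exiting it. A list of 40 genes was drawn up by enzymatic step, and a gene was taken where its symbol stood in the expression table, which held for 37 of the 40 among 14790 genes. *Ogdh*, *Pgd* and *Idh3b* had no row of that exact symbol and are not counted. RNA was sequenced from 13 Wistar-Furth rats, called susceptible in the study's methods, with 1 library per rat. Of these, 6 were 6 weeks old (the group within WOS) and 7 were 10 weeks old (the group outside WOS). No treatment is named for either group, so the groups differ in age alone as labelled. The cells were ductal organoids freed with collagenase, a preparation that per the study's methods also carries stromal fibroblasts and immune cells. The value for a gene in a rat is a normalized count, namely a count that the authors scaled per library and rounded. Per rat, these values summed to 13261906 at the lowest and 15659533 at the highest in the younger group, and to 13766735 and 15402814 in the older. Such sums are set by the scaling and do not give the sequencing depth.

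Glycolysis splits glucose into pyruvate, with hexokinase and phosphofructokinase as its regulated early steps. Lactate dehydrogenase turns pyruvate into lactate and back, while the pyruvate dehydrogenase complex commits it to acetyl-CoA, which the TCA cycle oxidizes to feed respiration. The pentose phosphate pathway branches off after hexokinase and provides NADPH and ribose for the synthesis of lipids and nucleotides, both in demand in growing and lactating mammary gland.

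The epithelial label was checked on keratins and *Epcam*. The luminal keratin *Krt8* lay between 6486 and 15250 normalized counts within WOS and between 8857 and 17430 outside WOS, and the basal keratin *Krt14* between 1707 and 4864 and between 2049 and 3961. *Epcam*, an adhesion molecule of epithelial cells, was above 0 in every rat, at 8992 to 12180 in the younger and 12060 to 17080 in the older rats. Fibroblast and proliferation genes differed strongly between the ages, as described with their values further on. In such bulk samples, fewer cells of a type and less RNA per cell cannot be told apart.

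Differences between the ages were tested in limma on the log2(normalized count + 1) scale, with p-values adjusted after Benjamini-Hochberg over all 14790 genes and a threshold of 0.05. A log2 fold change (log2FC) above 0 stands for a higher level within WOS. Among the 37 genes, 6 were higher within WOS and 1 was higher outside WOS. Over all genes tested the corresponding shares were 8.71% and 7.39%, and over the 8858 genes with a mean of at least 100, a level that all 37 reach, they were 7.9% and 9.83%. The 6 genes higher within WOS (16.2% of 37) were *Gpi*, *Pfkm*, *Ldhb*, *Pdhb*, *Pdp1* and *Idh2*, and the gene higher outside WOS (2.7%) was *Hk2*. The log2FC was above 0 for 31 of 37 genes (83.8%), against 52.5% of all genes. Its median over the 37 genes was 0.24, with a range from -0.43 to 1.14, against 0.03 over all genes. For 0 of the 37 genes did every rat of one age lie above every rat of the other, a separation seen for 6.07% of all genes. When limma weighted the samples by their quality, 20 of the 37 genes (54.1%) were higher within WOS, and so were 20.3% of all genes.

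**Figure D1:**
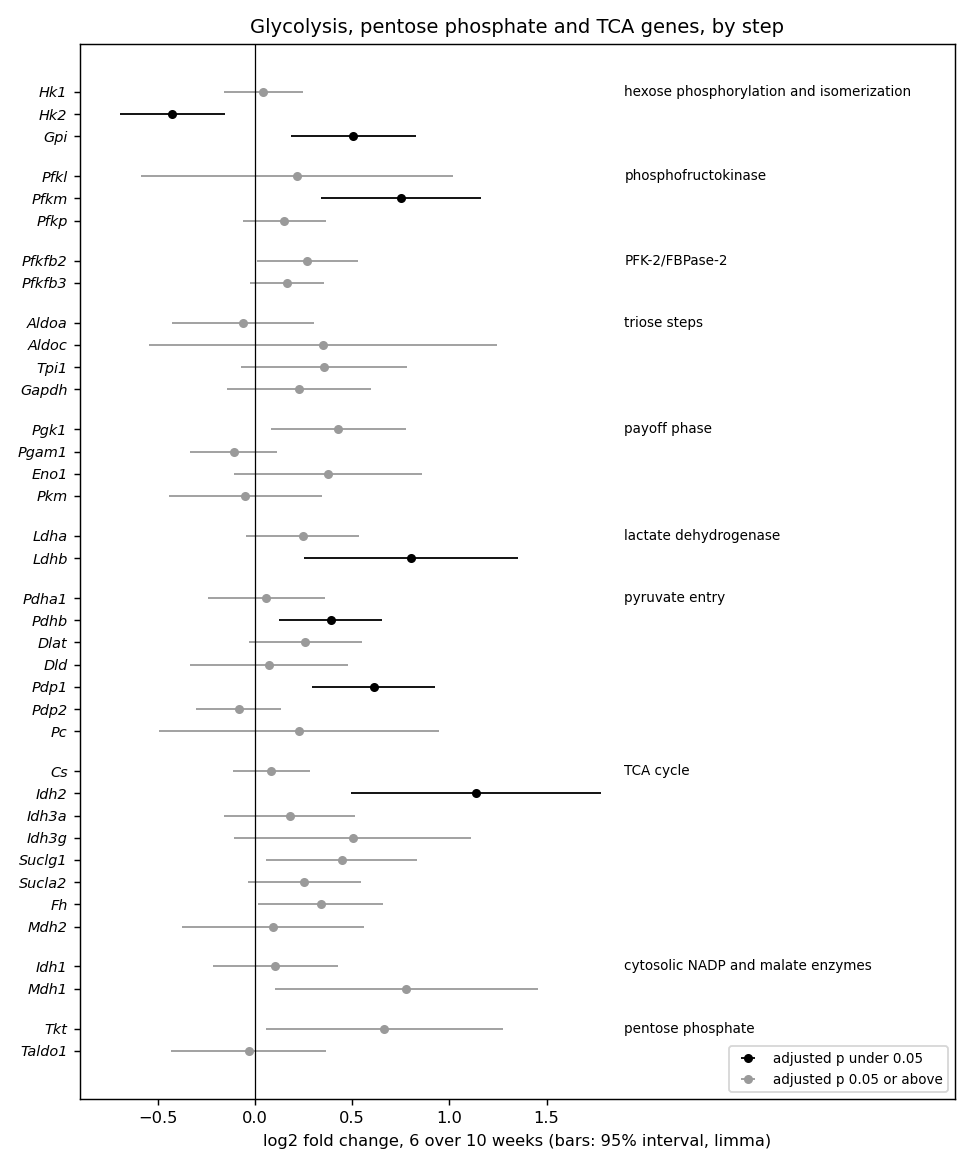
Log2 fold change of the 37 genes, 6 over 10 weeks, with genes grouped by step on the vertical axis and limma's 95% interval as a bar. The 7 genes with an adjusted p under 0.05 are black, and *Hk2* at -0.43 is the only one of them to the left of 0.

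Some rats moved together whatever their age. With the age means taken out, the leading component of all genes carried 28.3% of what variation was left, and its largest gap parted the rats into a larger set of 8 (rats 70, 71, 84 and 86 at 6 weeks and rats 72, 74, 85 and 87 at 10 weeks) and a smaller set of 5 (rats 75 and 80 at 6 weeks and rats 78, 81 and 83 at 10 weeks). No label names this split, but it follows the rat numbers, every rat from 75 to 83 being in the smaller set. What the numbers stand for is not stated. In the larger set alone 15 of the 37 genes were higher within WOS and 1 higher outside WOS, with a median log2FC of 0.39. The 15 genes are 40.5% of the 37, and 13.6% of all genes were higher within WOS in that fit. In the smaller set alone the median log2FC was 0.01, 20 of 37 genes lay above 0 and 0 passed the threshold, as did 0 of all genes. At an unadjusted p under 0.05 limma gave 3 of the 37 genes and 1976 of all genes there. With so few rats of each age in the smaller set, a single rat weighs heavily on its log2FC. Besides *Gpi*, *Pfkm*, *Ldhb*, *Pdhb* and *Idh2*, those higher within WOS in the larger set were *Pfkfb2*, *Aldoc*, *Pgk1*, *Pc*, *Idh3g*, *Suclg1*, *Fh*, *Mdh2*, *Mdh1* and *Tkt*. The values by set are given with these genes, and the difference between the sets was not tested. Because the sets were drawn from these same values, adjusted p-values within a set are descriptive and no separate support.

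The count changed with single rats, as did the count over all genes. Without rat 70 or without rat 84, 2 of the 37 genes (5.41%) were higher within WOS, namely *Pfkm* and *Pdp1*, and 5.43% and 5.8% of all genes were. Without rat 71, 72, 74, 78 or 87 the count was 3 (8.11%), with between 6.0% and 7.19% of all genes. Without rat 83, 85 or 86 it was 4 (10.8%), with between 7.95% and 8.38% of all genes. Without rat 80 it was 6, with 8.31% of all genes, and without rat 75 or rat 81 it was 7 (18.9%), with 8.47% and 9.88%. The smaller counts thus stood at or near the share over all genes in the same fits. *Pfkm* and *Pdp1* passed in all 13 fits that left out 1 rat and *Idh2* in 11, the exceptions being the fits without rat 70 or rat 84, with an adjusted p of up to 0.0561. *Hk2* passed in 5 of these fits, *Gpi* in 4, and *Ldhb* and *Pdhb* in 3 each.

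Promoter sequences are shown for *Pfkm* and *Idh2*, which had the smallest adjusted p among the 7 genes apart from *Pdp1*, and for *Hk2*, chosen after its values were seen because it moved the other way. Each runs 5′ to 3′ from 250 bases before to 50 bases after the start of the gene in RefSeq (build GRCr8), at chr7:131113849-131114148 on the plus strand for *Pfkm*, chr1:143467199-143467498 on the minus strand for *Idh2* and chr4:116841226-116841525 on the minus strand for *Hk2*. Capitals mark ACGTG, the core of the hypoxia response element, or GGGCGG, the GC box, on either strand.
Pfkm: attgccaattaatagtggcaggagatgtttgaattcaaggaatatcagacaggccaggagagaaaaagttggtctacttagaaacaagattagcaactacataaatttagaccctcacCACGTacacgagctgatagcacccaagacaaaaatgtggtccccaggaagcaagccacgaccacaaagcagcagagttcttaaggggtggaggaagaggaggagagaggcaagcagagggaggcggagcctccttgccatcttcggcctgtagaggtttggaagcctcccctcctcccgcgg
Idh2: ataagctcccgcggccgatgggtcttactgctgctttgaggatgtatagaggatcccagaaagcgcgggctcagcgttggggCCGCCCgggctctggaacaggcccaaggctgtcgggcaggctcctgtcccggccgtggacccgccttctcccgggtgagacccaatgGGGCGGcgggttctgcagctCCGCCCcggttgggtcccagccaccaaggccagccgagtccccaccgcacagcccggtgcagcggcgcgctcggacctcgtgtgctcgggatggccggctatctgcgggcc
Hk2: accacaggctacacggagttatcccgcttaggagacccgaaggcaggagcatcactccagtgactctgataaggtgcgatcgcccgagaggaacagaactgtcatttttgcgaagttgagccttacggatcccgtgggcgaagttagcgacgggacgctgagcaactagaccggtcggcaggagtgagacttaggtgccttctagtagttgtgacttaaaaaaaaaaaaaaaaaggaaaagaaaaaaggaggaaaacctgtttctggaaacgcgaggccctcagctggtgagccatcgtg
The *Pfkm* window holds 1 ACGTG, read on the opposite strand. The *Idh2* window holds 3 GC boxes, whose first bases lie 168, 81 and 61 bases before the start, and its GC content is 70.0%, against 50.3% for *Pfkm* and 51.0% for *Hk2*. The *Hk2* window holds neither motif. Of the 37 genes, 32 had a promoter in the table of 33469. ACGTG on either strand was in 14 of the 32 (43.8%) and in 19.3% of all promoters, and GGGCGG was in 22 (68.8%) and in 33.1%. The E-box CACGTG, which contains ACGTG, was in 3 of the 32 (9.38%) and in 6.42% of all promoters. TCAAGGTCA, the motif of estrogen-related receptors, was in 0 of the 32 and in 0.433% of all promoters. The promoters behind these shares were not matched to the 32 in GC content or in expression level, so the shares are not like for like. These matches describe the letters in the windows and were not set against the expression of the genes.

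At the entry of glucose into the pathway, the hexokinases and the isomerase did not move together. *Hk2*, the inducible hexokinase that phosphorylates glucose, had 2987, 3973.5 and 4689 normalized counts as the lowest, median and highest value within WOS, and 4598, 5318 and 5665 outside WOS. In 5 of the 6 younger rats its value lay below that of every 10-week rat. Its mean was 3886 ± 698 within WOS (SD, n = 6) and 5166 ± 454 outside WOS (SD, n = 7), a log2FC of -0.43 (SE 0.12, adjusted p = 0.0367). By set, the log2FC was -0.53 (larger) and -0.20 (smaller). Scaling the libraries to equal totals gave -0.38, which missed the threshold at an adjusted p of 0.0622. *Hk1*, the constitutive hexokinase of most tissues, had means of 1386 ± 112 and 1346 ± 119 and a log2FC of 0.04 (95% interval -0.16 to 0.24). *Gpi*, which converts glucose 6-phosphate to fructose 6-phosphate, had 866, 1095 and 1381 normalized counts within WOS and 641, 762 and 1037 outside WOS. The ages overlapped, with 4 of the 6 younger rats above every 10-week rat, and the means of 1117 ± 198 and 787 ± 146 gave a log2FC of 0.51 (SE 0.15, adjusted p = 0.0366), 0.73 in the larger set and 0.17 in the smaller.

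Phosphofructokinase, the committed step of glycolysis, exists as a muscle (*Pfkm*), a liver (*Pfkl*) and a platelet (*Pfkp*) type. *Pfkm*, whose promoter is printed above, had a lowest, median and highest value of 123, 157 and 231 normalized counts within WOS and of 80, 89 and 132 outside WOS. Of the 6 younger rats, 5 lay above every 10-week rat. The means of 172 ± 47.6 and 101 ± 22.8 gave a log2FC of 0.75 (SE 0.19, adjusted p = 0.0195), with 0.96 in the larger set and 0.37 in the smaller. *Pfkl* had a log2FC of 0.21 with a wide interval (-0.59 to 1.02), and its sign turned to -0.41 in the smaller set. *Pfkp* did not pass, with means of 818 ± 54.7 and 739 ± 80.5 (log2FC 0.15, adjusted p = 0.315). The bifunctional enzymes that set fructose 2,6-bisphosphate, the activator of phosphofructokinase, did not pass the threshold, with a log2FC of 0.27 for *Pfkfb2* (adjusted p = 0.141) and 0.16 for *Pfkfb3* (adjusted p = 0.222). *Pfkfb2* was at 0.39 in the larger set and 0.10 in the smaller, and *Pfkfb3* at 0.10 and 0.26.

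From aldolase to pyruvate kinase, 0 of 8 genes passed the threshold, against 16.1% of all genes. The log2FC lay between -0.11 for the mutase *Pgam1* and 0.43 for the kinase *Pgk1*, which makes the first ATP of the payoff phase. *Pgk1* had means of 2083 ± 500 and 1522 ± 208 normalized counts and an adjusted p of 0.0881. It passed in limma with the leading residual component fitted too (adjusted p = 0.0234) and without rat 80 (adjusted p = 0.0377). The aldolases *Aldoa* and *Aldoc* had a log2FC of -0.06 and 0.35, the triose isomerase *Tpi1* 0.35, the dehydrogenase *Gapdh* 0.22, the enolase *Eno1* 0.38 and the pyruvate kinase *Pkm* -0.05. At an unadjusted p under 0.05 limma gave 1 of these 8 genes, *Pgk1*, against 31.6% of all genes. In the larger set 2 of the 8 genes passed, against 23.5% of all genes. They were *Pgk1* at 0.54 (adjusted p = 0.0243) and *Aldoc* at 1.22 (adjusted p = 0.0189), while *Eno1* was at 0.74. In the smaller set these genes were at 0.13, -1.11 and -0.20. Under sample quality weights *Aldoc*, *Tpi1*, *Gapdh*, *Pgk1* and *Eno1* passed, as did 38.2% of all genes. The levels of *Gapdh*, *Ldha*, *Eno1*, *Pkm* and *Tpi1* are uncertain because the table also lists near-copies described as such, to which reads may have been split. The most abundant of these copies, LOC108351137, is described as *Gapdh*-like and had means of 1941 ± 480 and 1720 ± 242, and 0 of the 7 copies passed the threshold.

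At the branch between lactate and acetyl-CoA, *Ldhb*, the heart type subunit of lactate dehydrogenase, was higher within WOS. Its lowest, median and highest values were 111, 206.5 and 312 normalized counts within WOS and 86, 111 and 192 outside WOS. The overlap was wide, since the lowest 6-week rat equalled the median of the 10-week rats, and 4 of the 6 younger rats lay above all 10-week rats. The means of 214 ± 78.9 and 119 ± 36.4 gave a log2FC of 0.80 (SE 0.26, adjusted p = 0.0481). The threshold was missed with median-ratio scaling (adjusted p = 0.0504) and with a pseudocount of 0.1 (adjusted p = 0.0512). By set, it was 1.24 (larger) and 0.01 (smaller). The muscle type subunit *Ldha* had means of 5518 ± 1018 and 4618 ± 605, with a log2FC of 0.24 (adjusted p = 0.23).

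Of the 7 genes of pyruvate entry into mitochondria, 2 (28.6%) were higher within WOS past the threshold, against 8.71% of all genes. *Pdp1*, a phosphatase that switches pyruvate dehydrogenase on, had 840, 929 and 1242 normalized counts within WOS and 452, 622 and 862 outside WOS. A single 10-week rat, at 862, reached into the range of the 6-week rats. The means of 976 ± 145 and 645 ± 129 gave a log2FC of 0.61 (SE 0.15, adjusted p = 0.0155), the smallest adjusted p of the 37 genes. By set, the log2FC was 0.77 in the smaller set of rats and 0.47 in the larger one, where the adjusted p was 0.0661. *Pdhb*, the beta subunit of the first enzyme of the complex, had 432, 535.5 and 609 normalized counts within WOS and 322, 388 and 473 outside WOS. Of the 6 younger rats, 5 lay above every 10-week rat, and the means of 529 ± 66.8 and 405 ± 56.2 gave a log2FC of 0.39 (SE 0.12, adjusted p = 0.0465), with 0.37 and 0.34 in the sets. With median-ratio scaling *Pdhb* was at 0.37 and missed the threshold (adjusted p = 0.0528). The other subunits did not pass the threshold, at a log2FC of 0.06 for *Pdha1*, 0.26 for *Dlat* and 0.07 for *Dld*. Under sample quality weights *Dlat* passed, at 0.31 (adjusted p = 0.0489). The second phosphatase *Pdp2* had means of 267 ± 20.8 and 283 ± 32.9 (log2FC -0.08, adjusted p = 0.605), and *Pc*, which carboxylates pyruvate to oxaloacetate, had a log2FC of 0.23 with an interval from -0.49 to 0.94. By set, *Pc* was at 0.85 in the larger (adjusted p = 0.0285) and at -0.70 in the smaller.

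In the TCA cycle all 8 genes had a log2FC above 0, as had 52.5% of all genes, and 1 of them (12.5%) was higher within WOS past the threshold, against 8.71% of all genes. *Idh2*, the mitochondrial isocitrate dehydrogenase that yields NADPH, had the largest log2FC of the 37 genes. It had 233, 324.5 and 640 normalized counts as lowest, median and highest value within WOS and 101, 155 and 320 outside WOS. In 6 of the 7 older rats the value lay below that of every 6-week rat. The means of 389 ± 161 and 177 ± 74.8 gave a log2FC of 1.14 (SE 0.30, adjusted p = 0.0231), a 2.2-fold higher level within WOS, with 1.62 in the larger set and 0.35 in the smaller. The subunits *Idh3a* and *Idh3g* of the NAD-linked enzyme were at 0.18 and 0.50 and did not pass. A row spelled *Idh3B* had means of 488 ± 130 and 454 ± 59.7 and a log2FC of 0.07, and a row described as *Ogdh*-like, LOC103693780, had a log2FC of -0.17 (adjusted p = 0.627), neither counted among the 37. Citrate synthase (*Cs*) was at 0.08, the succinyl-CoA ligase subunits *Suclg1* and *Sucla2* at 0.45 and 0.25, fumarase (*Fh*) at 0.34 and malate dehydrogenase 2 (*Mdh2*) at 0.09. In the larger set, 5 of the 8 TCA genes were higher within WOS past the threshold, against 13.6% of all genes. They were *Idh2*, *Idh3g* at 0.94 (adjusted p = 0.0201), *Suclg1* at 0.62 (adjusted p = 0.0125), *Fh* at 0.60 (adjusted p = 0.0227) and *Mdh2* at 0.48 (adjusted p = 0.0331). In the smaller set *Suclg1* was at 0.11, *Idh3g* at -0.35, *Fh* at -0.12 and *Mdh2* at -0.51. *Idh3a* was at 0.31 and -0.13.

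Outside the mitochondrion, the cytosolic malate dehydrogenase *Mdh1* had means of 974 ± 409 and 566 ± 270 normalized counts, a log2FC of 0.78 that did not pass at an adjusted p of 0.109. It was at 1.19 in the larger set, where it passed (adjusted p = 0.00889), and at -0.01 in the smaller. *Mdh1* also passed without rat 81 and under sample quality weights (adjusted p = 0.00412). The cytosolic *Idh1* was at 0.10 (95% interval -0.22 to 0.42). Of the pentose phosphate genes, the transketolase *Tkt* had means of 1615 ± 550 and 1031 ± 416 and a log2FC of 0.66 (adjusted p = 0.126), with 1.05 in the larger set (adjusted p = 0.0425) and 0.16 in the smaller. The transaldolase *Taldo1* was at -0.03 (interval -0.43 to 0.37), or at 0.02 when libraries were scaled to equal totals.

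**Figure D2:**
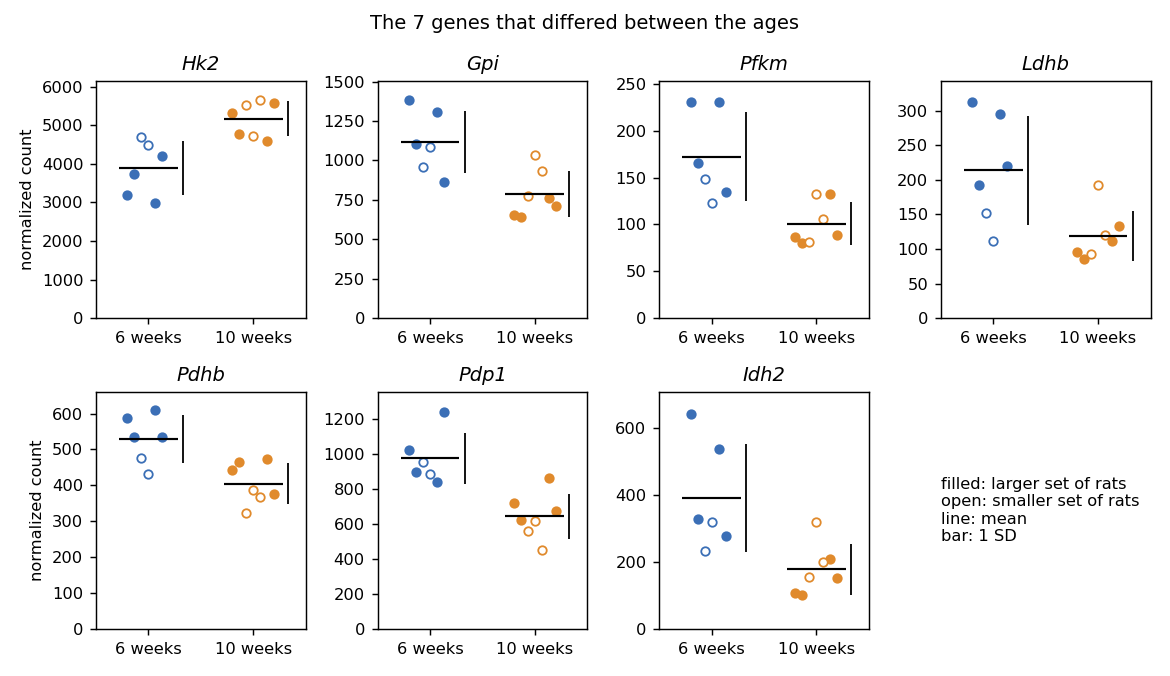
Normalized count per rat of the 7 genes that passed the threshold, at 6 weeks (n = 6) and 10 weeks (n = 7), with the mean as a line and 1 SD as a bar at its side. Filled points are the larger set of rats and open points the smaller set, and in *Ldhb* both open points at 6 weeks lie within the 10-week range.

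A ratio of a pair of isoenzymes within a library depends little on how that library was scaled. Each ratio was formed on the normalized count + 1, so it is not wholly free of the scaling, and with 0.1 in place of 1 the same number of pairs passed. The change of 9 such log2 ratios between the ages was tested with an exact permutation test, two-sided, over all 1716 ways of dividing the rats. Adjustment was over the 9 pairs. It does not cover the choice of the pairs, which was made with earlier results of these data known. The ratio of *Hk2* to *Hk1* was 1.26, 1.36, 1.59, 1.79, 1.08 and 1.75 in rats 70, 71, 75, 80, 84 and 86 within WOS, and between 1.85 and 2.04 in the 7 rats outside WOS. All 6 younger rats thus lay below all 7 older rats, and the younger rats were more spread out (1.47 ± 0.28 against 1.94 ± 0.07). The difference was -0.47, with an exact permutation p of 0.000583, the smallest that these numbers of rats allow, and an adjusted p of 0.00524. This ratio passed in all 13 repeats of the exact permutation test that left out 1 rat, with an adjusted p between 0.0114 and 0.0195. By set, the difference was -0.56 (larger) and -0.27 (smaller).

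The ratio of *Pdp2* to *Pdp1* was the other one to pass. Its lowest, median and highest values were -2.27, -1.82 and -1.59 in the younger rats (-1.86 ± 0.27) and -1.70, -1.15 and -0.60 in the older rats (-1.17 ± 0.42), so the ages overlapped at their edges, with 3 of the 6 younger rats below all older rats. The difference was -0.69, with an exact permutation p of 0.00758 and an adjusted p of 0.0341. It passed in 5 of the 13 repeats that left out 1 rat, those without rat 71, 72, 80, 81 or 85, and the adjusted p of the exact permutation test reached 0.0795 without rat 70. The change was -0.43 in the larger set and -1.03 in the smaller. Each pair that passed holds a gene (*Hk2* or *Pdp1*) that passed in limma on the same values, so the ratios are no separate support.

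Lactate dehydrogenase, isocitrate dehydrogenase and malate dehydrogenase came close to the threshold without passing it. *Ldha* to *Ldhb* differed by -0.56 (exact permutation, adjusted p = 0.0524), *Idh1* to *Idh2* by -1.03 (adjusted p = 0.0535) and *Mdh1* to *Mdh2* by 0.69 (adjusted p = 0.0524). Without rat 81 all of these passed the exact permutation test, at an adjusted p of 0.0292 for the lactate dehydrogenase pair and 0.0468 for the others, and 5 of the 9 pairs passed in all. For the remaining pairs the differences were 0.54 for *Pfkm* to *Pfkl*, -0.06 for *Pfkp* to *Pfkl*, 0.41 for *Aldoc* to *Aldoa* and -0.11 for *Pfkfb3* to *Pfkfb2*, each with an adjusted p of 0.274 or more in the exact permutation test. With the 4 rats of each age in the larger set the exact permutation p could not go below 0.0286. A single pair at that floor cannot pass adjustment over 9 pairs, and 0 pairs passed. Ldha/Ldhb, Hk2/Hk1, Aldoc/Aldoa, Pfkfb3/Pfkfb2 and Mdh1/Mdh2 each had an adjusted p of 0.0514 in this exact permutation test. So few rats leave the test little room, and no conclusion is drawn from the 0.

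**Figure D3:**
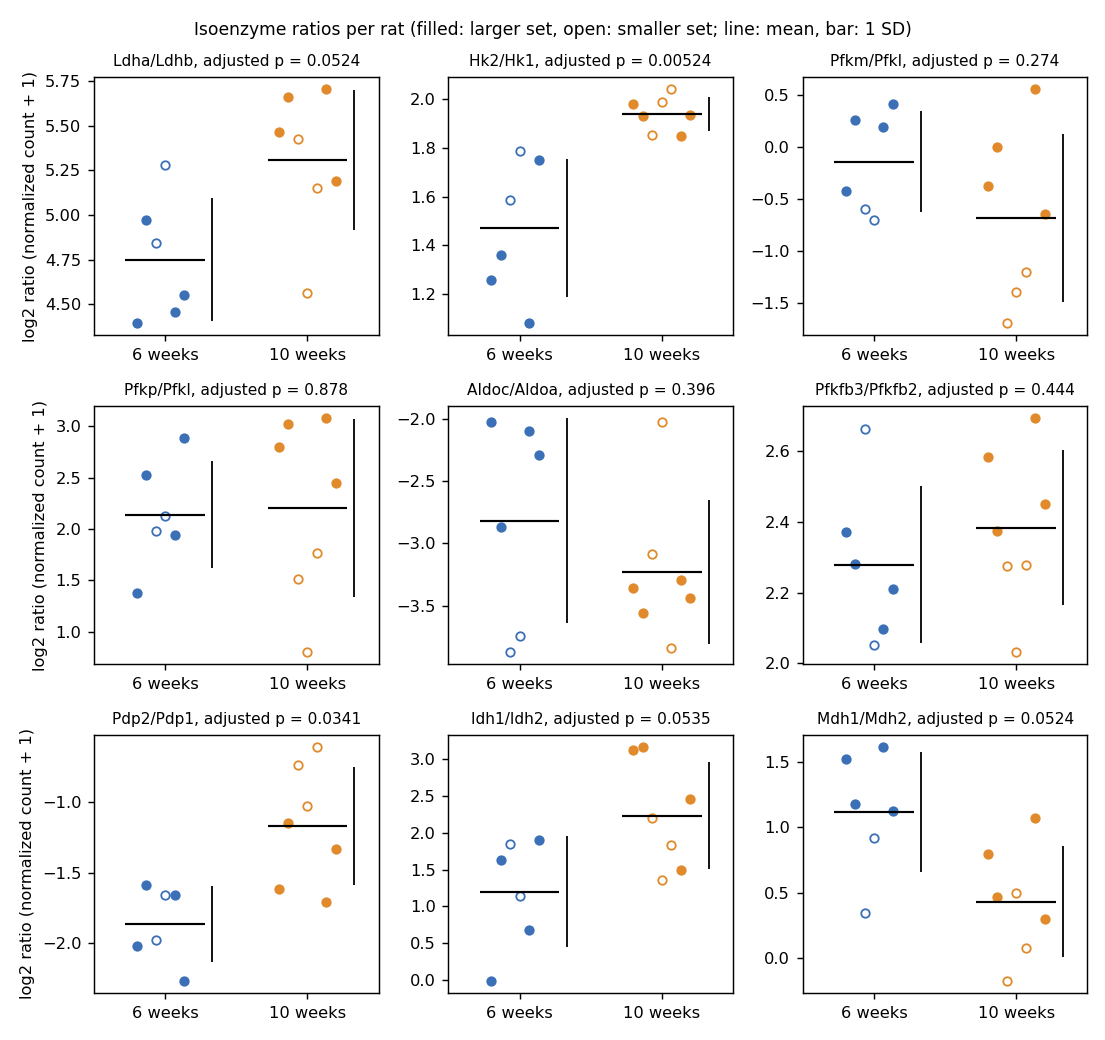
Log2 ratio of (normalized count + 1) for 9 isoenzyme pairs in each rat at 6 weeks (n = 6) and 10 weeks (n = 7), with the mean as a line, 1 SD as a bar, filled points for the larger and open points for the smaller set of rats. For Hk2/Hk1 every 6-week point lies below every 10-week point, and for Pdp2/Pdp1 the ages overlap between -1.70 and -1.59.

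Further genes of the same pathways were read from the same limma fit, 49 of 63 listed by function being in the table. Of these, 2 were higher within WOS, against 8.71% of all genes, and 3 were higher outside WOS, against 7.39%, with a median log2FC of 0.10. *Pdk4*, the kinase that switches pyruvate dehydrogenase off and so acts against *Pdp1*, changed most. It had 1265, 1402, 1308, 1320, 733 and 1462 normalized counts in rats 70, 71, 75, 80, 84 and 86 within WOS, and 4118, 11084, 13242, 8822, 7806, 3981 and 5659 in rats 72, 74, 78, 81, 83, 85 and 87 outside WOS. Every older rat was above every younger rat, in both sets of rats, and the log2FC was -2.55 (SE 0.29, adjusted p = 0.000206). The other kinases of the complex did not pass with all rats, with a log2FC of 0.62 for *Pdk1* (adjusted p = 0.0789), -0.12 for *Pdk2* (adjusted p = 0.815) and 0.91 for *Pdk3* (adjusted p = 0.0673). In the larger set *Pdk1* at 0.47 (adjusted p = 0.0472) and *Pdk3* at 0.88 (adjusted p = 0.00703) passed, with 0.73 for each in the smaller set, and *Pdk2* was at 0.40 and -0.91.

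The malic enzyme *Me1*, a cytosolic source of NADPH, was likewise higher outside WOS, at 1618 ± 251 against 2251 ± 253 normalized counts (log2FC -0.48, adjusted p = 0.0188). *Pgam5*, a mitochondrial phosphatase of the phosphoglycerate mutase family, was at 744 ± 101 and 1028 ± 161 (log2FC -0.46, adjusted p = 0.0382). Higher within WOS were *Pck2*, the mitochondrial phosphoenolpyruvate carboxykinase, at 282 ± 82.7 against 142 ± 63.9 (log2FC 1.04, adjusted p = 0.0267), and *Shpk*, which phosphorylates sedoheptulose, at 118 ± 52.4 against 64.4 ± 17.7 (log2FC 0.81, adjusted p = 0.0393). The log2FC of the succinate dehydrogenase subunits *Sdha*, *Sdhb*, *Sdhc* and *Sdhd* was 0.51, 0.26, 0.42 and 0.58, none past the threshold with all rats. In the larger set *Sdha* at 0.75 (adjusted p = 0.0234), *Sdhc* at 0.61 (adjusted p = 0.0297) and *Sdhd* at 0.84 (adjusted p = 0.0221) passed, and in the smaller set they were at 0.06, 0.03 and 0.03. *Sdhb* was at 0.49 and -0.12 and passed in neither. The glucose transporter *Slc2a1* was at -0.31 (adjusted p = 0.141). By set (larger, then smaller), the log2FC was -2.27 and -2.88 for *Pdk4*, -0.40 and -0.68 for *Me1*, -0.52 and -0.42 for *Pgam5*, 1.40 and 0.59 for *Pck2* and 0.75 and 1.08 for *Shpk*. The number of these 49 genes past the threshold was 5 with all rats (10.2%, against 16.1% of all genes). It was 2 without rat 72 (4.08% against 11.1%), 3 without rat 70, 74, 84, 85 or 87 (6.12% against 9.54% to 15.2%), 8 without rat 80 (16.3% against 15%) and 9 without rat 81 (18.4% against 18.1%).

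Rats differed within an age in a way that many of the 37 genes shared. Rat 81, a 10-week rat of the smaller set, had the highest value of its age in 21 of 37 genes, at a median of 0.27 log2 units above the mean of its age. Rats 70 and 84 were highest among the 6-week rats in 14 and 12 genes, at a median of 0.26 and 0.25 above it. Rat 80 was lowest among the 6-week rats in 14 genes, and rat 74 among the 10-week rats in 15.

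**Figure D4:**
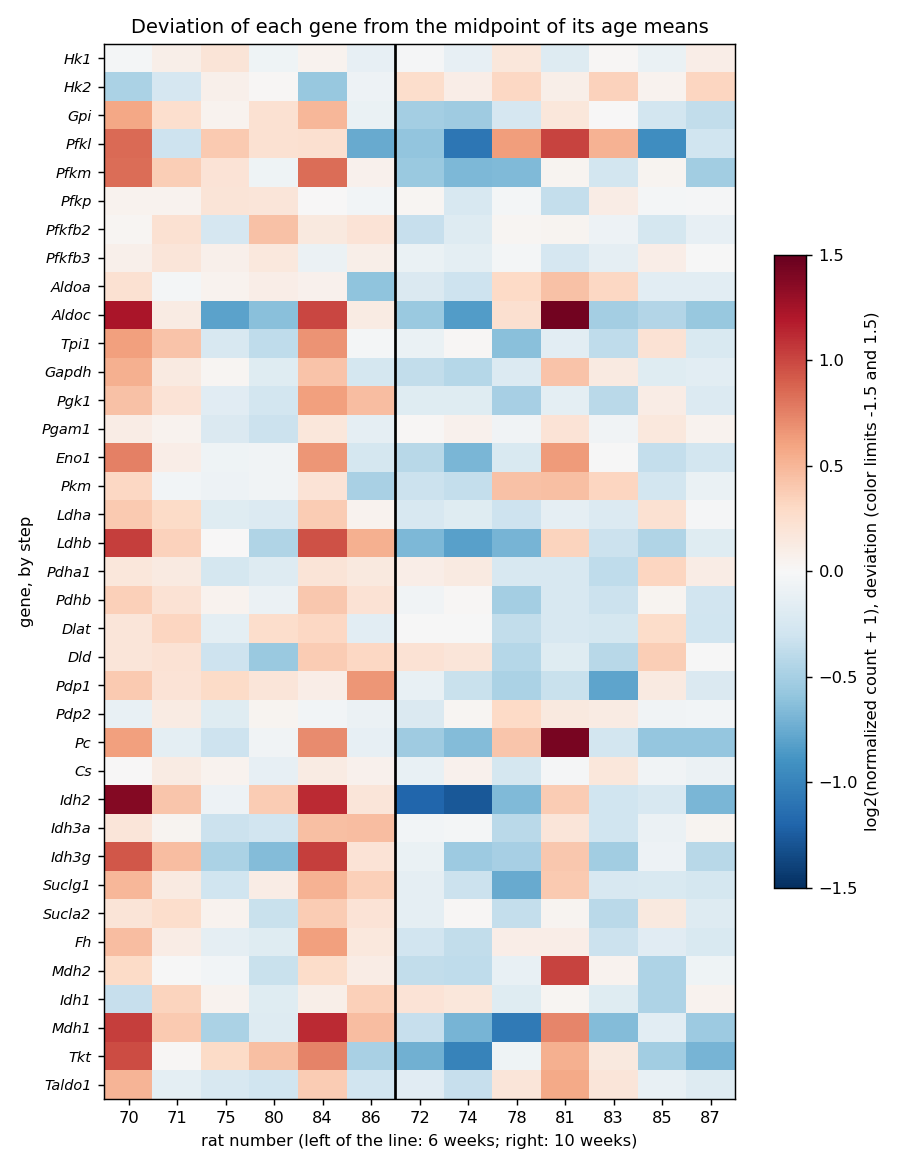
Deviation of log2(normalized count + 1) from the midpoint between the age means, for the 37 genes in order of step (rows) and the 13 rats (columns, 6 weeks to the left of the line), with red above and blue below. Rats 70 and 84 are red in most rows and rat 81 is the reddest of the 10-week rats, in particular in *Aldoc*, *Pc* and *Mdh2*.

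Genes of other cell types and of proliferation also moved with age, and their part in the metabolic differences was not tested. Of 12 proliferation genes, 11 were higher within WOS (median log2FC 2.14), *Pcna*, the most abundant, being the one that did not pass. Their summed normalized counts were 7447, 6072, 4800, 4577, 8471 and 7941 in rats 70, 71, 75, 80, 84 and 86 within WOS, and 2457, 2808, 2506, 3768, 2636, 3094 and 2480 in rats 72, 74, 78, 81, 83, 85 and 87 outside WOS. The sums of the younger rats were all above those of the older rats, with rats 84, 86 and 70 highest at 6 weeks and rat 81 highest at 10 weeks. Of 7 fibroblast genes, 4 were higher within WOS, the collagens *Col1a1* and *Col3a1* together with *Lum* and *Fap*, and 3 did not pass (*Dcn*, *Dpt* and *Pdgfra*). Their sum, led by *Col3a1*, ran from 106416 to 222193 within WOS (median 186022) and from 19324 to 55299 outside WOS (median 49271). Within WOS it was highest in rats 80 and 75, at 222193 and 218643, and lowest in rats 71 and 84, at 106416 and 108459.

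Red blood cell genes were higher within WOS for 3 of 4, with a summed count from 1253 to 3166 (median 2070.5) within WOS and from 186 to 831 (median 264) outside WOS, led by *Hbb*. Of 10 luminal genes 1 passed, *Epcam*, and of 8 basal genes 1, *Cnn1*, both higher outside WOS. The median log2FC was -0.13 over the luminal genes, 1 of 10 being above 0, and 0.15 over the basal genes, 5 of 8 being above 0. The luminal sum ran from 23937 to 43605 within WOS (median 33920) and from 31945 to 49619 outside WOS (median 40675), and the basal sum from 19012 to 30009 (median 27401) and from 26868 to 36958 (median 29807), led by *Myh11* with a log2FC of -0.34. Of 7 adipocyte genes, *Adipoq* and *Plin1* were higher within WOS at low levels, *Adipoq* at 33.7 ± 14.4 and 7.0 ± 4.80 normalized counts, and both were listed at 0 in rat 81. The adipocyte sum, led by *Fabp4*, ran from 1781 to 2636 within WOS (median 2196.5) and from 1951 to 3035 outside WOS (median 2146). The macrophage (8 genes), endothelial (6) and skeletal muscle (3) lists had 0 genes past the threshold with limma, and 1 each at an unadjusted p under 0.05. Of 4 lymphocyte genes, *Cd79b* was higher within WOS, at 7.17 ± 5.98 and 1.14 ± 1.21 normalized counts, and the B cell marker *Ms4a1* was listed at 0 in rats of both ages.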

How the data were processed

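RNA-seq was made from mammary epithelial cells of 13 rats, 6 within WOS and 7 outside WOS. Each rat was a separate animal with 1 library. According to the labels, RSEM 1.2.22 and build rn5 were used by the authors for the gene counts, and the annotation is not given in the sources used here. The authors deposited these counts scaled per library and rounded to whole numbers, a unit taken here as a score and called normalized counts. The scaling factors, and hence the depth behind each value, are not stated. The authors' deposited table also holds columns of their own comparison of the ages (log2 fold change and mean abundance, a likelihood ratio, p-value and false discovery rate, status) and a word on cellular location, which were not used. All per-rat columns were matched to rats by number and age.

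Values were compared on log2(normalized count + 1) with limma 3.58.1 in R 4.3.3, for genes whose mean reached 1 (all 14790), with no covariate, two-sided p-values and Benjamini-Hochberg adjustment over all genes at a threshold of 0.05. This scale understates the change of low genes. The same code was tested on simulated data. Isoenzyme ratios of (normalized count + 1) and exact permutation tests used Python 3.11.15 (numpy 2.4.6, pandas 2.3.3, scipy 1.17.1). No pair of columns was identical, and 133 genes share all values with another gene, 0 of them among the 37.

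Genes were grouped by step. Those that passed are given with their lowest, median and highest value, mean, SD, log2 fold change, SE and adjusted p, the others with their log2 fold change, and of the further pathway genes those that passed are described first. Some listed genes are not reported here by name. Near-copies were found by the descriptions in the table. The genes, lists and pairs were chosen with earlier results of these data known. Promoters were read from a RefSeq table (GRCr8) by symbol, with no entry for *Pdp1*. The fit was repeated with scaling by median ratio, by library size or by upper quartile, with 0.1 as pseudocount, with 10 as the least value in every rat or with no minimum, with limma-trend, with weights for sample quality, with the leading residual component fitted as a covariate, within each set of rats, and leaving out 1 rat at a time.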

Additional observations from a re-analysis of the deposited data

Results flagged for a closer look

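In 3 of the 92 combinations of a gene or ratio with an age, 1 rat lay far from the others of its age, where chance alone gives about 1 in 20. *Aldoa* was at 2034 normalized counts in rat 86, the lowest of the 6-week rats. *Mdh2* was at 809 normalized counts in rat 81, the highest of the 10-week rats. The log2 ratio of *Aldoc* to *Aldoa* was -2.02 in rat 81, the highest of the 10-week rats. *Aldoa* and *Mdh2* did not pass the threshold between the ages.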

How the results depend on the processing

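The median log2 fold change of all genes stayed within 0.1 of 0 under each scaling, at 0.01 with median-ratio, 0.07 with library size and 0.03 with upper quartile scaling, while the split of calls moved from 1288 and 1093 to 1203 and 1174 with median-ratio and to 1297 and 772 with library size scaling. Of the 37 genes, 4 were higher within WOS with median-ratio scaling (*Gpi*, *Idh2*, *Pdp1* and *Pfkm*; 10.8%, against 8.13% of all genes) and 5 with a pseudocount of 0.1, which lost *Ldhb* (13.5%, against 8.21%). Library size scaling left 0 higher outside WOS and put *Taldo1* at 0.016. Sample quality weights gave 5647 genes in all (38.2%), 20 of the 37 genes higher within WOS (54.1%, against 20.3% of all genes) and 21 further pathway genes (42.9%), and turned *Aldoa* to 0.11, *Pkm* to 0.18, *Pdp2* to 0.067 and *Taldo1* to 0.17. Those added under these weights were *Pfkfb2*, *Aldoc*, *Tpi1*, *Gapdh*, *Pgk1*, *Eno1*, *Ldha*, *Dlat*, *Idh3g*, *Suclg1*, *Sucla2*, *Fh*, *Mdh1* and *Tkt*, all higher within WOS. Fitting the first residual component too, 7 of the 37 genes were higher within WOS (18.9%, against 12.7% of all genes), with *Pgk1* added. In that fit 12 further pathway genes passed (24.5%, against 23.8% of all genes). In the larger set of rats 15 of the 37 genes were higher within WOS, and 16 further pathway genes passed (32.7%, against 23.5% of all genes). There 0 isoenzyme pairs passed, in an exact test with little room at that number of rats. *Aldoa* turned to 0.12, *Pkm* to 0.26, *Pdha1* to -0.006, *Pdp2* to 0.039 and *Taldo1* to 0.32. In the smaller set 0 genes passed in any list, and the sign turned to below 0 for *Pfkl* (-0.41), *Aldoc* (-1.11), *Gapdh* (-0.20), *Eno1* (-0.20), *Dld* (-0.091), *Pc* (-0.70), *Idh3a* (-0.13), *Idh3g* (-0.35), *Fh* (-0.12), *Mdh2* (-0.51) and *Mdh1* (-0.009), while the ratios turned for Ldha/Ldhb (0.013), Pfkp/Pfkl (0.70), Aldoc/Aldoa (-0.83) and Pfkfb3/Pfkfb2 (0.16). Its 2 against 3 rats are too few for the exact test of ratios, which was not run. Leaving out 1 rat gave 1411 to 2680 genes in all (9.54% to 18.1%), 2 to 7 of the 37 genes higher within WOS and 0 to 1 higher outside WOS, 2 to 9 further pathway genes and 1 to 5 isoenzyme pairs, with *Aldoa* from -0.12 to 0.053, *Pkm* from -0.12 to 0.043, *Pdha1* from -0.001 to 0.12, *Taldo1* from -0.14 to 0.06 and Pfkp/Pfkl from -0.30 to 0.09. The causes were not tested. No paired analysis was possible because the ages share no rat numbers.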
